A study of Homo sapiens with 18 samples.

Results

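The genes described here are 40 genes of the cell cycle and of DNA replication, measured in the human lung adenocarcinoma cell line A549 after silencing of atypical protein kinase C and treatment with transforming growth factor beta (TGFβ). A gene was taken by its symbol where a probe set carried that symbol alone, and the brightest probe set stood for a gene with several, which applied to BIRC5. All 40 were found among the 18377 genes measured. They comprise 20 genes of the G1/S transition and of S phase, from MCM2 to E2F1, 19 genes of G2 and mitosis, from CCNA2 to TPX2, and the G1 cyclin CCND1.

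The 18 whole-transcript expression arrays fell into 6 groups of 3 biological replicates, each labelled from 200 ng of RNA. Cells carried either a control siRNA (siControl) or siRNA against both PKCiota and PKCzeta (siPKCiz), so the isoforms cannot be told apart. All cells had been grown in medium with 10% serum. Per the labels' protocol, cells of both arms were starved of serum and given TGFβ at 250 pM for 1 h, which was then washed off before 7 h or 23 h more in 0.2% serum. This gave the 8 h and 24 h groups of each arm, while the untreated groups of each arm carry no time. In comparisons of treated with untreated groups, TGFβ and time in low serum therefore cannot be told apart. The labels do not say whether replicates came from separate transfections, so p-values measure the spread between these samples, which may in part be technical.

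The helicase MCM2-7 is loaded onto replication origins by CDC6 and CDT1 in G1 and becomes active in S phase when CDC45 and the GINS complex join it. Genes of this step are transcribed under E2F factors, which the retinoblastoma protein restrains until cyclin D and cyclin E kinases release them, whereas genes of G2 and mitosis are repressed in quiescent cells through the CHR element, and CCAAT boxes in their promoters bind the activator NF-Y. In many epithelial cells TGFβ halts the cycle in G1 by raising CDK inhibitors and lowering CDC25A, and this cytostatic response is often weakened in carcinoma cells. A549 cells are known to lack CDKN2A, which encodes the inhibitors p16 and ARF, and CDKN2A read 5.71 to 6.30 log2 intensity on the 18 arrays, below every array's median of 7.29 to 7.33. All 40 genes had a mean above these medians.

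The targeted genes and the replicates were examined first. PRKCI (PKCiota) was lower in siPKCiz by 4.73-fold over the 3 conditions (log2 change -2.24 ± 0.052, SE; limma adjusted p = 1.98e-15) in every replicate. PRKCZ (PKCzeta) was lower by 2.10-fold (-1.07 ± 0.14; adjusted p = 3.43e-05), but in replicate 1 it read 7.68 to 7.99 in siPKCiz against 8.05 to 8.27 in siControl, whereas in replicates 2 and 3 it read 7.15 to 7.56 against 8.64 to 8.94. In 6 of 6 groups replicates 2 and 3 lay closest together (r = 0.996 to 0.998 across genes, against 0.992 to 0.995 for pairs with replicate 1). Since the arrays of replicate 1 stood apart, called members are given with them and without them. Of the further genes described, those are named for which leaving these arrays out ends a call or moves it by over 1.5 times. Whether a shared culture or handling set these arrays apart was not tested. The fit without them keeps the arrays that were picked for their agreement, so its spread is small in part by that choice. The median SE of a member's change between 2 groups was 0.096 in it, against 0.115 with all arrays. Its p-values and counts are thus likely too favourable. All 7 epithelial markers read above the array median in every group, 0 of 5 leukocyte and 0 of 5 endothelial markers did, and 1 or 2 of 6 fibroblast markers did.

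Promoter sequences show how the S phase and the mitotic genes differ in a feature that the choice by name did not use. Promoter windows in the RefSeq table (GRCh38.p14; 250 bases before to 50 after the start) matched 33 of the 40 genes, and MCM4, MCM5, CCNE2, CCND1, AURKA, BIRC5 and TPX2 had no entry. Windows were searched on both strands for an E2F-like motif (TTTNNCGC), the CHR (TTTGAA) and the CCAAT box (CCAAT). Some genes had several windows, and a gene was counted where any of its windows held a match. The E2F-like motif was found for 12 of 17 S phase genes (70.6%), for 1 of 16 mitotic genes (6.25%) and for 8.23% of all 27305 genes of the table. The CHR letters were found for 1 of 17 S phase genes (5.88%), 10 of 16 mitotic genes (62.5%) and 18.2% of all genes, and CCAAT for 76.5%, 87.5% and 39.7%. A match describes the letters and is not evidence of binding. The 250 bases upstream of the start are shown for 4 genes that were called below, an S phase pair and a mitotic pair, 5′ to 3′ on the gene's strand, with motif matches in capitals. They are CDT1 (licensing factor; chr16:88803539-88803788, plus strand), GINS2 (GINS subunit; chr16:85688955-85689204, minus strand), MKI67 (the Ki-67 proliferation antigen; chr10:128126424-128126673, minus strand) and KIF20A (a kinesin of cytokinesis; chr5:138178862-138179111, plus strand).
CDT1: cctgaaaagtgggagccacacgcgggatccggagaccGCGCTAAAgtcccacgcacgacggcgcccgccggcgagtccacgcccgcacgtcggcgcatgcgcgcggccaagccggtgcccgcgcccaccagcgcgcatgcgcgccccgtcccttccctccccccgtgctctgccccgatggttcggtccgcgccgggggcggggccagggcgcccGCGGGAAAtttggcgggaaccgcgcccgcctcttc
GINS2: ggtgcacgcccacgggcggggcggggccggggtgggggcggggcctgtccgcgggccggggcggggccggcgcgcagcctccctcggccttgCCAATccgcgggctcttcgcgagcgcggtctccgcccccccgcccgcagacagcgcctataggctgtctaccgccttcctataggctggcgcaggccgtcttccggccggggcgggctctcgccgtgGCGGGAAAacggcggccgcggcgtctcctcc
MKI67: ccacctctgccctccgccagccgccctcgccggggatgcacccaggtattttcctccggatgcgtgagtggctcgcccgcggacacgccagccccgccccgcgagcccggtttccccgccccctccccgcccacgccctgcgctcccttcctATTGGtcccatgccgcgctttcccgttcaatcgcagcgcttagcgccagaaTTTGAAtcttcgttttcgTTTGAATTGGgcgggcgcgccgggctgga
KIF20A: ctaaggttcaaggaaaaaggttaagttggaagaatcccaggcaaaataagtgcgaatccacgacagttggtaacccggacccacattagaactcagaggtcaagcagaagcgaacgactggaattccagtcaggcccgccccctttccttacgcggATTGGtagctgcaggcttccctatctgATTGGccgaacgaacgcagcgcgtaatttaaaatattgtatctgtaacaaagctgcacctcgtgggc
CDT1 holds 2 E2F-like matches and GINS2 holds 1, the nearest ending 28 and 24 bases before the start, and GINS2 also holds 1 CCAAT. MKI67 holds 2 CHR matches, the nearer of which shares a base with 1 of its 2 CCAAT matches (read as ATTGG on the other strand), and KIF20A holds 2 CCAAT matches and no TTTGAA in this window.

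On the arrays the members moved by small amounts. Their median SD within a group was 0.151 log2 units, against 0.123 for all genes, and the median SE of a member's change between 2 groups was 0.115. To view the families as wholes, each gene was centred on its mean over the 18 arrays and averaged over its family. The S phase mean in replicates 1, 2 and 3 of siControl was -0.155, 0.083 and 0.051 log2 units without TGFβ, 0.048, -0.136 and -0.235 at 8 h, and 0.138, -0.100 and -0.162 at 24 h. Among the replicate 1 arrays of siControl the untreated array was thus the lowest and the 24 h array the highest, whereas in replicates 2 and 3 the untreated array was the highest. In siPKCiz the S phase mean was 0.016, 0.226 and 0.217 without TGFβ, -0.028, 0.154 and 0.079 at 8 h, and -0.019, -0.083 and -0.096 at 24 h, where all 3 arrays at 24 h lay below 0.

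**Figure D1:**
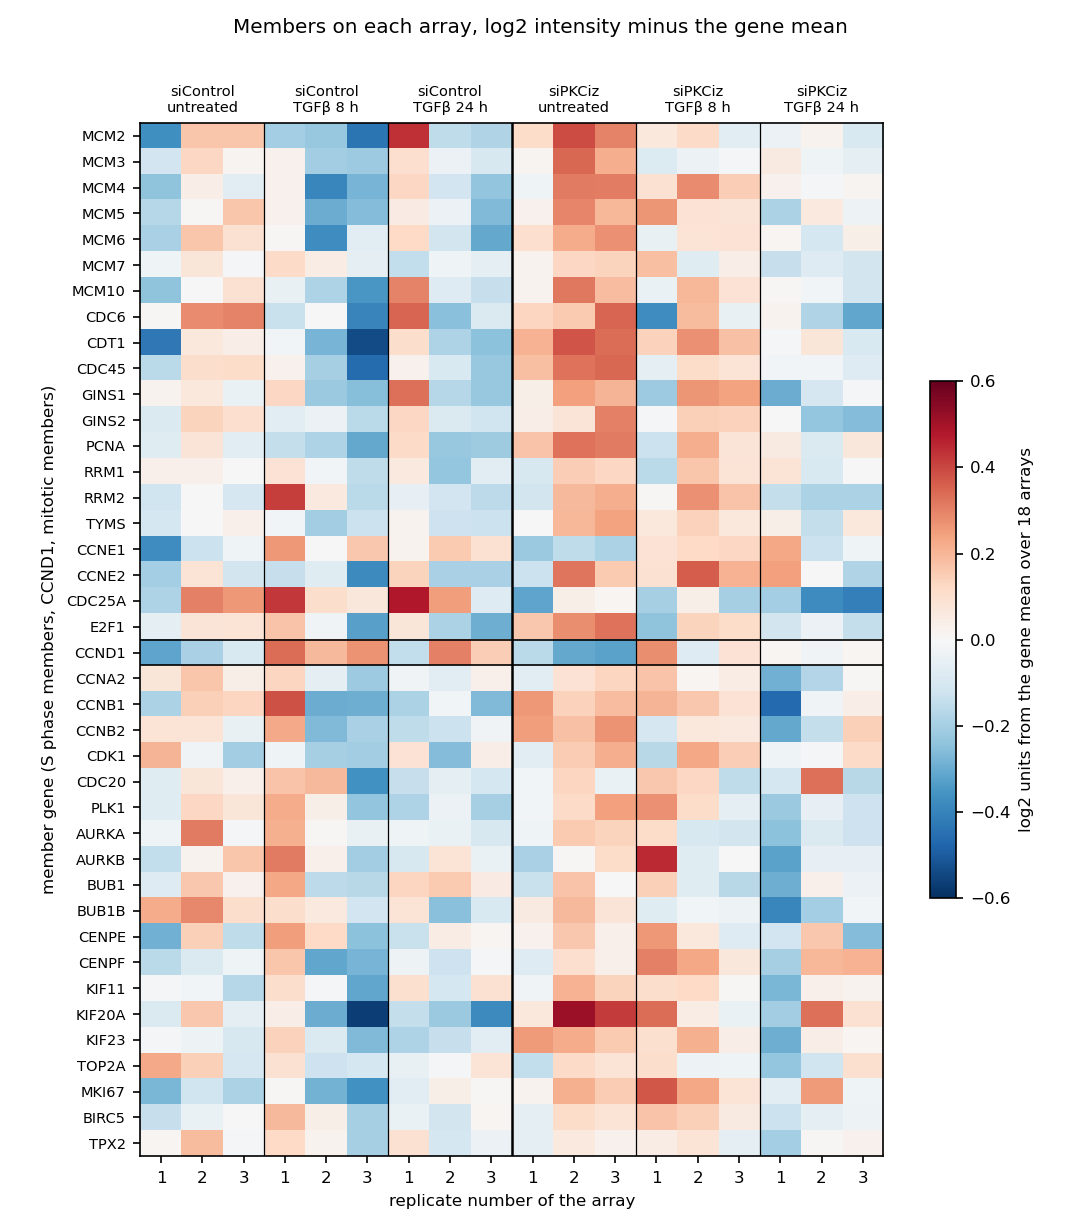
Heat map of the 40 members (rows) on the 18 arrays (columns, by group and replicate), as log2 intensity minus each gene's mean over all arrays; the colour scale runs from -0.6 to 0.6. In siControl, replicate 1 runs opposite to replicates 2 and 3 in most S phase rows, for which its family mean was -0.155 untreated and 0.138 at 24 h.

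The mitotic mean in siControl was -0.038, 0.089 and -0.026 without TGFβ, 0.162, -0.083 and -0.241 at 8 h, and -0.051, -0.071 and -0.052 at 24 h. In siPKCiz it was 0.002, 0.159 and 0.129 without TGFβ, 0.156, 0.081 and -0.007 at 8 h, and -0.231, 0.025 and -0.004 at 24 h. At 8 h replicate 1 was the highest array of its group in both arms, and the siControl arrays at 8 h were spread widest. Averaged by group, S phase minus mitotic means stayed within -0.054 and 0.057 in the 6 groups. The pooled SD between single arrays of a group was 0.125. Single arrays ran from -0.184 (replicate 1 of siPKCiz at 8 h) to 0.211 (replicate 1 of siPKCiz at 24 h). At 24 h the difference was positive in replicate 1 of siControl too (0.190). Replicates 2 and 3 at 24 h were negative, at -0.030 and -0.110 for siControl and -0.108 and -0.092 for siPKCiz. The small group means at 24 h thus average replicates of opposite sign.

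**Figure D2:**
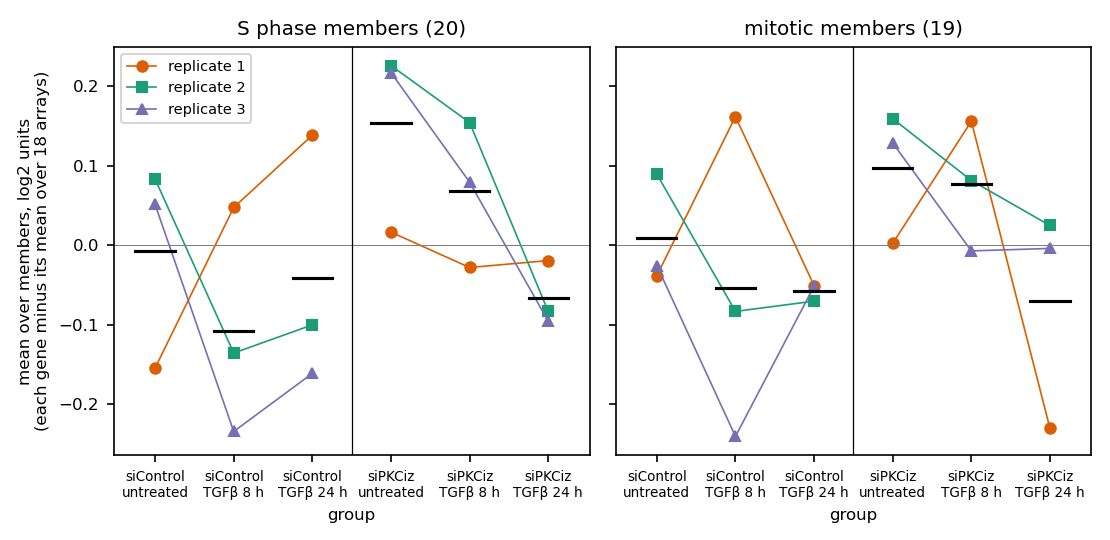
Mean centred log2 intensity of the 20 S phase members and of the 19 mitotic members on each array (y axis, log2 units) by group (x axis); lines join arrays of the same replicate number and black bars mark group means of 3 arrays. The S phase mean of replicate 1 in siControl goes from -0.155 untreated to 0.138 at 24 h, while replicates 2 and 3 go from 0.083 and 0.051 to -0.100 and -0.162.

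The first comparison asks how the genes differ 8 h after TGFβ in control cells. CCND1, the D-type cyclin that starts release from the retinoblastoma protein, and CCNE1, the cyclin E that follows it, rose, and no other member passed the test. They were 2 of 40 members (5%), where 11.4% of all genes were called in either direction and 5.17% higher. Of the 20 S phase members 16 had estimates below 0, with a median of -0.13 against 0.00223 for all genes, as had 16 of the 19 mitotic members (median -0.052). In bulk RNA, fewer cells in a phase and less of a transcript per cell cannot be told apart.

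Values on single arrays are log2 intensity in the order of replicates 1, 2 and 3. CCND1 read 11.03, 11.15 and 11.25 in siControl without TGFβ, 11.68, 11.54 and 11.61 at 8 h and 11.20, 11.64 and 11.49 at 24 h. The silenced arrays gave 11.18, 11.03 and 11.02, then 11.62, 11.27 and 11.43 at 8 h and 11.35, 11.32 and 11.35 at 24 h. All arrays after TGFβ lay above all untreated arrays of their arm except replicate 1 at 24 h in siControl. At 8 h in siControl the rise was 1.38-fold (0.47 ± 0.11; limma adjusted p = 0.00633), and without replicate 1 it was 0.37 ± 0.091 (adjusted p = 0.0102). CCNE1 read 9.85, 10.10 and 10.20 in siControl without TGFβ, 10.48, 10.23 and 10.39 at 8 h and 10.24, 10.38 and 10.32 at 24 h. With siPKCiz the values were 10.00, 10.07 and 10.03 untreated, 10.31, 10.34 and 10.35 at 8 h and 10.45, 10.09 and 10.20 at 24 h. Its arrays at 8 h and at 24 h lay above the untreated ones of their arm. The rise at 8 h in siControl was 1.24-fold (0.32 ± 0.099; adjusted p = 0.0456), and it was 0.16 (adjusted p = 0.247) without replicate 1, whose untreated array read lowest of its group. Over 9 settings that left out an array or a replicate number, CCND1 kept its call in 7 and CCNE1 in 2.

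The licensing gene CDC6 read 11.17, 11.45 and 11.46 in siControl without TGFβ, 11.03, 11.16 and 10.77 at 8 h and 11.51, 10.91 and 11.08 at 24 h. Values in the silenced arm were 11.29, 11.32 and 11.51, 10.79, 11.35 and 11.12 at 8 h and 11.19, 10.98 and 10.85 at 24 h. In siControl the highest array at 8 h (11.16) lay just below the lowest untreated array (11.17), and the change of -0.37 ± 0.16 did not pass the test (adjusted p = 0.149). MCM10, which aids the start of synthesis at origins, read 9.81, 10.05 and 10.14 in siControl without TGFβ, 10.00, 9.86 and 9.70 at 8 h and 10.35, 9.97 and 9.91 at 24 h. In siPKCiz it read 10.07, 10.36 and 10.23 untreated, 10.01, 10.25 and 10.13 at 8 h and 10.05, 10.03 and 9.94 at 24 h. In control cells its replicate 1 was lowest without TGFβ and highest at 24 h, and replicates 2 and 3 were highest without TGFβ. KIF20A, the mitotic kinesin, read 11.12, 11.37 and 11.15 in siControl without TGFβ, 11.25, 10.91 and 10.64 at 8 h and 11.06, 10.98 and 10.82 at 24 h. The silenced arrays gave 11.27, 11.72 and 11.62, then 11.54, 11.25 and 11.16 at 8 h and 11.00, 11.54 and 11.30 at 24 h. Here too replicates 2 and 3 of siControl were lower at 8 h than untreated (11.37 to 10.91 and 11.15 to 10.64), while replicate 1 went from 11.12 to 11.25.

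With replicate 1 left out, 12 of 40 members were called at 8 h in siControl, where 15.9% of all genes were called (10.2% lower). CCND1 rose and 11 members fell: the helicase genes MCM2, MCM3, MCM4, MCM5 and MCM6, with MCM10, CDC6, CDT1 and CDC45, and of the mitotic genes CCNB1 and KIF20A. The largest falls were in MCM2 (-0.50 ± 0.096; adjusted p = 0.00193), CDC6 (-0.49), KIF20A (-0.48) and CDT1 (-0.46). Without replicate 2, or without replicate 3, 0 members were called by limma, and leaving out the single array of siControl at 8 h replicate 3, or untreated replicate 1 or 2, left 1. Set side by side by replicate number, which the arrays' deviations did not bear out as a pairing, 18 of 20 S phase members read higher at 8 h than untreated in replicate 1, 2 in replicate 2 and 1 in replicate 3, with mean changes of 0.20, -0.22 and -0.29; the mitotic counts were 16, 4 and 1 of 19. Of all genes 48.2% to 52.1% read higher in those pairs.

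**Figure D3:**
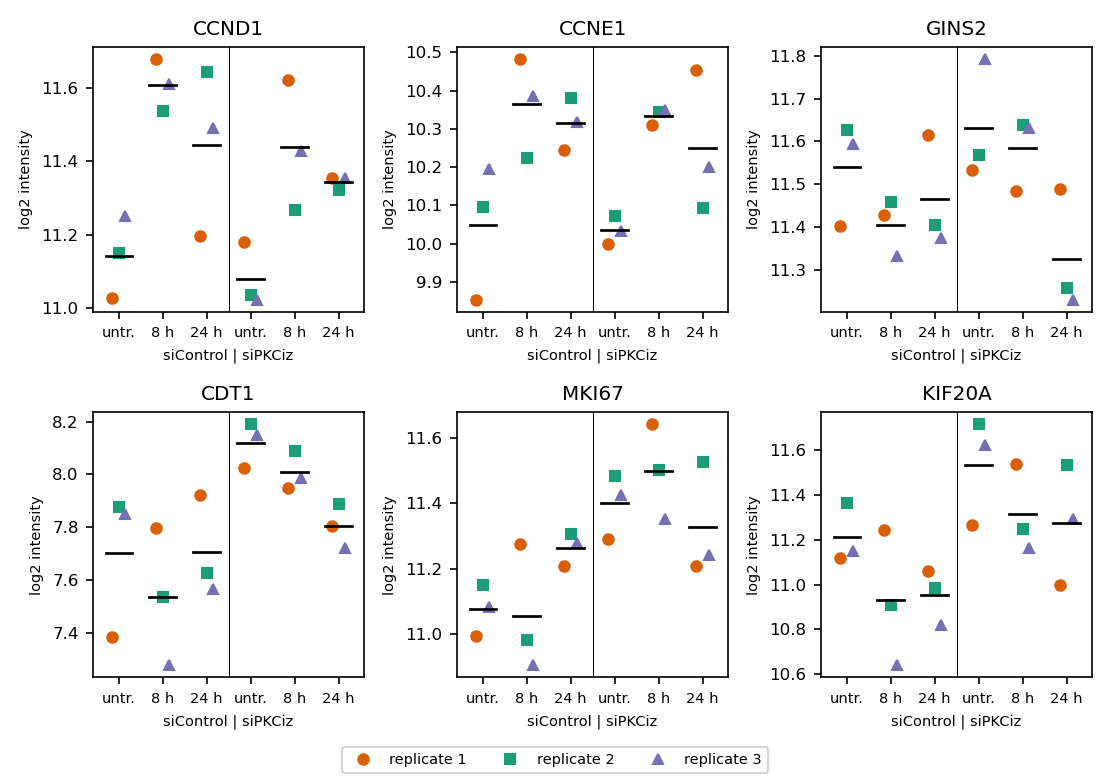
Log2 intensity of 6 called members on each of the 18 arrays (y axis) by group (x axis), with a marker for each replicate number. CCND1 in siControl goes from 11.03 to 11.25 untreated to 11.54 to 11.68 at 8 h, and CDT1 and MKI67 at 8 h lie higher in siPKCiz (7.95 to 8.09 and 11.35 to 11.64) than in siControl (7.28 to 7.80 and 10.91 to 11.28).

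Beyond the 40, a list of 166 further cell cycle genes, of which 159 were measured, had 4 higher and 15 lower at 8 h in siControl (11.9%, against 11.4% of all genes). Of the genes known from the TGFβ cytostatic response, ID1, which encodes an inhibitor of differentiation factors, rose by 0.76, the growth gene MYC rose by 0.45 and ID2 fell by 0.74. Of 7 CDK inhibitor genes CDKN1A rose by 0.70 ± 0.14 (limma adjusted p = 0.0025) and CDKN3 and CDKN1B fell (-0.43 and -0.31). The phosphatase gene CDC25B fell by 0.64, and of the E2F family E2F2 and E2F5 fell (-0.31 and -0.30). Among 15 origin genes WDHD1 and the kinase gene CDC7 fell (-0.42 and -0.41), and 4 of 22 genes of polymerases and fork factors fell, the primase gene PRIM1 by 0.58 and the clamp loader genes RFC1, RFC4 and RFC2 by 0.34, 0.31 and 0.27. The checkpoint kinase gene CHEK2 fell by 0.45, the cytokinesis gene ECT2 by 0.59 and the kinesin gene KIF18A by 0.41, and the APC/C activator gene FZR1 rose by 0.46. The calls of FZR1 (0.22; adjusted p = 0.273) and RFC2 (-0.25; adjusted p = 0.0989) were lost without replicate 1.

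At 24 h in control cells 0 of 40 members were called by limma, where 12.3% of all genes were called. An unadjusted p under 0.05 was found for 3 members (7.5%) and for 23.6% of all genes. The lowest p-values were those of BUB1B, a kinase-like gene of the spindle checkpoint (-0.29 ± 0.099; adjusted p = 0.0658), and CCND1 (0.30 ± 0.11; adjusted p = 0.0757). S phase members had a median of -0.044 and mitotic members of -0.081, against -0.00995 for all genes. The S phase median was -0.20 without replicate 1, and 0.014 and 0.024 without replicates 2 and 3. By replicate number, 19, 1 and 1 of 20 S phase members read higher at 24 h than untreated in replicates 1, 2 and 3, and 9, 2 and 10 of 19 mitotic members did. Without replicate 1, 7 members were called where 15.6% of all genes were (8.99% lower): CCND1 rose (0.37; adjusted p = 0.0103), and CDC6 (-0.46), BUB1B (-0.37), KIF20A (-0.35), MCM6 (-0.34), MCM2 (-0.34) and E2F1 (-0.32) fell. Without only the 24 h array of replicate 1, 2 were called. This comparison shares its untreated arrays with that at 8 h.

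E2F1, the factor that activates S phase genes, read 9.15, 9.28 and 9.29 in siControl without TGFβ, 9.38, 9.18 and 8.88 at 8 h and 9.28, 9.02 and 8.91 at 24 h. With siPKCiz the values were 9.37, 9.48 and 9.53 untreated, 8.96, 9.34 and 9.31 at 8 h and 9.09, 9.17 and 9.06 at 24 h. In siControl the replicate 1 array at 24 h lay within the untreated range and the other 2 lay below it. PLK1, the polo kinase of mitotic entry, read 11.83, 12.02 and 11.97 in siControl without TGFβ, 12.12, 11.93 and 11.66 at 8 h and 11.72, 11.86 and 11.70 at 24 h. Values in the silenced arm were 11.88, 12.01 and 12.15, 12.17, 12.01 and 11.84 at 8 h and 11.68, 11.85 and 11.78 at 24 h. Its arrays overlapped between untreated and 8 h in both arms, and those at 24 h lay below the untreated ones in siPKCiz alone of the 2 arms, without passing the test (adjusted p = 0.185). AURKA, the spindle pole kinase gene, read 11.40, 11.74 and 11.42 in siControl without TGFβ, 11.64, 11.43 and 11.39 at 8 h and 11.40, 11.39 and 11.33 at 24 h. In siPKCiz it read 11.40, 11.59 and 11.56 untreated, 11.54, 11.33 and 11.32 at 8 h and 11.18, 11.34 and 11.30 at 24 h. Its arrays at 24 h lay below the untreated ones in both arms, in siControl only just (11.4037 at most, against 11.4046 at least). In siPKCiz the change of -0.24 ± 0.099 did not pass the test (adjusted p = 0.141).

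None of CCNA2, CCNB1 and TOP2A was called by limma in any comparison with all 18 arrays. CCNA2, the cyclin of S phase and G2, read 11.70, 11.79 and 11.67 in siControl without TGFβ, 11.76, 11.57 and 11.41 at 8 h and 11.61, 11.56 and 11.66 at 24 h. The silenced arrays gave 11.56, 11.72 and 11.76, then 11.80, 11.64 and 11.67 at 8 h and 11.34, 11.45 and 11.64 at 24 h. In siControl its arrays at 24 h (11.56 to 11.66) lay just below the untreated ones (11.67 to 11.79). CCNB1, the mitotic cyclin, read 10.81, 11.14 and 11.13 in siControl without TGFβ, 11.38, 10.70 and 10.71 at 8 h and 10.81, 10.98 and 10.73 at 24 h. With siPKCiz the values were 11.26, 11.14 and 11.18 untreated, 11.20, 11.16 and 11.09 at 8 h and 10.53, 10.98 and 11.04 at 24 h. In control cells at 8 h its replicate 1 was above and replicates 2 and 3 below the untreated arrays, and in siPKCiz the arrays at 24 h lay below the untreated ones. TOP2A, the topoisomerase gene that untangles sister chromatids, read 12.84, 12.76 and 12.51 in siControl without TGFβ, 12.70, 12.49 and 12.51 at 8 h and 12.57, 12.60 and 12.69 at 24 h. Values in the silenced arm were 12.47, 12.73 and 12.70, 12.72, 12.59 and 12.59 at 8 h and 12.38, 12.50 and 12.71 at 24 h. Its arrays overlapped between untreated and treated cells in either arm at both times.

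Of the 159 further genes 4 were higher and 9 lower in siControl at 24 h (8.18%, against 12.3% of all genes). The G1 kinase gene CDK6 rose by 0.66 and CDC25B fell by 0.61, the repressor gene E2F7 rose by 0.63 and E2F2 fell by 0.25, and FBXO5, an APC/C inhibitor gene, rose by 0.67 while the ubiquitin ligase gene SKP2 fell by 0.24. CHEK2 (-0.46), ECT2 (-0.63), the centromere gene CENPM (-0.39), the polymerase subunit gene POLD2 (-0.29), CDKN3 (-0.43) and ID2 (-0.78) also fell, and UHRF1 rose by 0.32. Without replicate 1 the calls of UHRF1 (0.21; adjusted p = 0.132) and E2F2 (-0.26; adjusted p = 0.073) were lost, and the rise of CDK6 was 0.42. Between 8 h and 24 h in siControl 0 of 40 members were called by limma, where 2.41% of all genes were called. An unadjusted p under 0.05 was found for 1 member (2.5%) and for 13.6% of all genes. The lowest p-values were those of MCM2 (0.32 ± 0.15, adjusted p = 0.353) and MKI67 (0.21 ± 0.11, adjusted p = 0.407). Without replicate 1 the count between the times was 0 where 3.65% of all genes were called. Of the further genes WDHD1 (0.46), RFC1 (0.34) and RBL2 (0.32) were higher at 24 h than at 8 h and MYC (-0.37) was lower, 2.52% of the 159. Without replicate 1 MYC (-0.23; adjusted p = 0.189) and RBL2 (0.36; adjusted p = 0.0745) were not called.

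In silenced cells 8 h after TGFβ, 0 of 40 members were called by limma, where 6.48% of all genes were called. An unadjusted p under 0.05 was found for 5 members (12.5%) and for 17.9% of all genes. CCND1 came nearest, with a 1.28-fold difference (0.36 ± 0.11; adjusted p = 0.0502), then CCNE1 (0.30 ± 0.099; adjusted p = 0.0839). Without replicate 1, 3 members were called where 6.11% of all genes were: CCND1 rose (0.32; adjusted p = 0.04995) and KIF20A (-0.46; adjusted p = 0.0235) and MCM3 (-0.31; adjusted p = 0.0428) fell. Without siPKCiz at 8 h replicate 2 alone, 1 was called. Of the 159 further genes 1 rose and 6 fell (4.4%, against 6.48% of all genes): ID3 was higher by 0.31, and CDKN1B (-0.40), CDC25B (-0.52), CDC7 (-0.46), WDHD1 (-0.38), RFC4 (-0.33) and CHEK2 (-0.44) were lower. The calls of WDHD1 (-0.30; adjusted p = 0.0772) and RFC4 (-0.29; adjusted p = 0.106) were lost without replicate 1.

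At 24 h in silenced cells GINS2, a subunit of the GINS complex of the active helicase, fell, and it was 1 of 40 members called, where 10.7% of all genes were (6.09% lower). GINS2 read 11.40, 11.63 and 11.59 in siControl without TGFβ, 11.43, 11.46 and 11.33 at 8 h and 11.62, 11.40 and 11.37 at 24 h. In siPKCiz it read 11.53, 11.57 and 11.79 untreated, 11.49, 11.64 and 11.63 at 8 h and 11.49, 11.26 and 11.23 at 24 h. In siPKCiz its arrays at 24 h, in replicates 2 and 3 by most, lay below the untreated ones. The fall was 1.24-fold (-0.31 ± 0.097; adjusted p = 0.0496), and -0.44 ± 0.091 (adjusted p = 0.00533) without replicate 1; the call was kept in 2 of 9 settings that left out an array or a replicate number. Of the S phase members 19 of 20 had estimates below 0 (median -0.23), as had 18 of 19 mitotic members (median -0.14), against -0.00798 over all genes. An unadjusted p under 0.05 was found for 18 of 40 members (45%) and for 23.6% of all genes. The 3 arrays at 24 h lay wholly below the 3 untreated arrays for 12 S phase and 6 mitotic members, as they did for 18.2% of all genes.

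RRM2, the inducible subunit of ribonucleotide reductase, read 10.61, 10.73 and 10.63 in siControl without TGFβ, 11.14, 10.79 and 10.56 at 8 h and 10.68, 10.61 and 10.57 at 24 h. The silenced arrays gave 10.62, 10.92 and 10.94, then 10.73, 11.00 and 10.90 at 8 h and 10.58, 10.54 and 10.53 at 24 h. In siPKCiz the 24 h arrays lay between 10.53 and 10.58, below the untreated arrays (10.62 to 10.94) and those at 8 h (10.73 to 11.00). PCNA, the sliding clamp of the polymerases, read 11.13, 11.28 and 11.14 in siControl without TGFβ, 11.06, 11.02 and 10.89 at 8 h and 11.32, 10.97 and 10.99 at 24 h. With siPKCiz the values were 11.37, 11.53 and 11.51 untreated, 11.07, 11.42 and 11.28 at 8 h and 11.26, 11.12 and 11.27 at 24 h. In siPKCiz it changed by -0.26 ± 0.10 at 24 h (adjusted p = 0.125), with the groups of arrays apart.

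Without replicate 1, 14 members were called at 24 h in siPKCiz, where 9.45% of all genes were (5.48% lower). CCND1 rose (0.31; adjusted p = 0.0427), and 13 S phase members and 0 of 19 mitotic members were called lower: MCM2, MCM3, MCM4, MCM10, CDC6, CDT1, CDC45, GINS1, GINS2, PCNA, RRM2, CDC25A and E2F1. Estimates were below 0 for 19 of 20 S phase members (median -0.33) and for 17 of 19 mitotic members (median -0.15). The largest falls were in CDC6 (-0.50), GINS2 (-0.44), CDC25A (-0.42) and RRM2 (-0.40). Without replicate 2 or replicate 3 the count was 0. Leaving out the 24 h array of replicate 2 or any 1 of the 3 untreated arrays of siPKCiz also gave 0, and the 24 h array of replicate 3 gave 2. By replicate number, 7, 1 and 1 of 20 S phase members read higher at 24 h than untreated in replicates 1, 2 and 3 (mean changes -0.036, -0.31 and -0.31), and 1, 3 and 3 of 19 mitotic members did.

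In siPKCiz at 24 h 1 of the 159 further genes was higher and 14 were lower (9.43%, against 10.7% of all genes called and 6.09% called lower). CCND3, another D-type cyclin gene, fell by 0.66 and CDC25B by 0.65, and ECT2 by 0.67. Replication genes among them were GINS4 (-0.43), CDC7 (-0.39), RFC4 (-0.37), POLD2 (-0.27) and the thymidine kinase gene TK1 (-0.40). CDKN3 (-0.48), CDKN1B (-0.34), E2F5 (-0.31), E2F2 (-0.30), CHEK2 (-0.44) and CENPM (-0.32) fell as well, and ID3 rose by 0.37. Without replicate 1 CDC7 (adjusted p = 0.0537), E2F5 (0.0563), TK1 (0.0687), E2F2 (0.0724) and POLD2 (0.147) were no longer called. Between 8 h and 24 h in siPKCiz 0 members were called by limma, where 0.805% of all genes were called. An unadjusted p under 0.05 was found for 5 members (12.5%) and for 12.2% of all genes. RRM2 (-0.32 ± 0.12, adjusted p = 0.254) and GINS2 (-0.26 ± 0.097, adjusted p = 0.268) had the lowest p-values. Without replicate 1 GINS2 (-0.39; adjusted p = 0.0432) and RRM2 (-0.41) fell, where 1.63% of all genes were called.

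Silencing was compared with the control siRNA within every condition and averaged over the 3. Over this average, 8 members rose and 1 fell, 9 of 40 (22.5%), where 19.9% of all genes were called. The 8 were 6 S phase members, MCM4, CDT1, CDC45, PCNA, TYMS and CCNE2, and the mitotic members KIF20A and MKI67, and the 1 was CDC25A. Higher members came to 20% of the 40, against 11.8% of all genes, and the 1 lower member stood against 8.17% lower among all genes. Medians were 0.12 for S phase and 0.061 for mitotic members, against -0.00703 for all genes. By condition the S phase median was 0.18 without TGFβ, 0.19 at 8 h and 0.015 at 24 h. The mitotic median was 0.10, 0.10 and -0.027, so the average does not describe the 24 h groups. These comparisons use the arrays of the TGFβ comparisons again.

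CDT1 read 7.38, 7.88 and 7.85 in siControl without TGFβ, 7.80, 7.54 and 7.28 at 8 h and 7.92, 7.63 and 7.57 at 24 h. Values in the silenced arm were 8.02, 8.19 and 8.15, 7.95, 8.09 and 7.99 at 8 h and 7.80, 7.89 and 7.72 at 24 h. In each condition all 3 arrays of siPKCiz read above those of siControl, except at 24 h, where replicate 1 of siControl was the highest array of both arms. Over the mean of conditions it rose 1.26-fold (0.33 ± 0.077; adjusted p = 0.00533). MCM4, a helicase subunit, read 10.58, 10.86 and 10.75 in siControl without TGFβ, 10.85, 10.43 and 10.54 at 8 h and 10.95, 10.71 and 10.59 at 24 h. In siPKCiz it read 10.80, 11.13 and 11.13 untreated, 10.92, 11.11 and 10.97 at 8 h and 10.85, 10.81 and 10.84 at 24 h. It rose by 0.25 ± 0.068 (adjusted p = 0.0129), and its arms did not overlap at 8 h. MKI67 read 11.00, 11.15 and 11.08 in siControl without TGFβ, 11.28, 10.98 and 10.91 at 8 h and 11.21, 11.31 and 11.28 at 24 h. The silenced arrays gave 11.29, 11.48 and 11.42, then 11.64, 11.50 and 11.35 at 8 h and 11.21, 11.53 and 11.24 at 24 h. Its arms were apart without TGFβ and at 8 h and overlapped at 24 h, and over the mean it rose by 0.28 ± 0.061 (adjusted p = 0.00345). KIF20A, whose values are given above, rose by 0.34 ± 0.091 (adjusted p = 0.0118).

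TYMS, thymidylate synthase, read 11.52, 11.63 and 11.66 in siControl without TGFβ, 11.61, 11.42 and 11.50 at 8 h and 11.65, 11.51 and 11.50 at 24 h. With siPKCiz the values were 11.63, 11.83 and 11.87 untreated, 11.69, 11.76 and 11.69 at 8 h and 11.66, 11.48 and 11.69 at 24 h. Its arms were apart at 8 h and overlapped otherwise, and the mean rise was 1.11-fold (0.15 ± 0.049; adjusted p = 0.0402). CCNE2, the other cyclin E, read 9.48, 9.77 and 9.58 in siControl without TGFβ, 9.55, 9.62 and 9.31 at 8 h and 9.83, 9.50 and 9.49 at 24 h. Values in the silenced arm were 9.56, 10.01 and 9.85, 9.78, 10.05 and 9.90 at 8 h and 9.94, 9.69 and 9.51 at 24 h. Its arms too were apart at 8 h alone, and replicate 1 at 24 h was the highest array of the control arm. It rose by 0.24 ± 0.077 (adjusted p = 0.0346). PCNA rose by 0.23 ± 0.059 (adjusted p = 0.0105) and CDC45 by 0.20 ± 0.063 (adjusted p = 0.0338). Of 21 settings that left out an array or a replicate number, the call was kept in 7 for TYMS, 8 for CCNE2 and 9 for CDC45, and in 19 for MCM4, CDT1, PCNA, MKI67, KIF20A and CDC25A, which lost it without replicate 2 and without replicate 3. With replicate 1 left out the rises were 0.19 in TYMS, 0.29 in CCNE2, 0.26 in CDC45 and 0.30 in MKI67, all called.

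CDC25A, the phosphatase that activates the cyclin E and cyclin A kinases, went the other way. It read 8.37, 8.86 and 8.82 in siControl without TGFβ, 8.98, 8.66 and 8.63 at 8 h and 9.04, 8.81 and 8.48 at 24 h. In siPKCiz it read 8.24, 8.59 and 8.57 untreated, 8.36, 8.59 and 8.36 at 8 h and 8.35, 8.18 and 8.15 at 24 h. The fall was 1.29-fold over the mean (-0.36 ± 0.086; adjusted p = 0.00589) and largest at 24 h (-0.55 ± 0.15), where the test was not passed (adjusted p = 0.0526). The arms did not overlap at 8 h or at 24 h. Without replicate 1 the mean change was -0.30 (adjusted p = 0.00151).

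**Figure D4:**
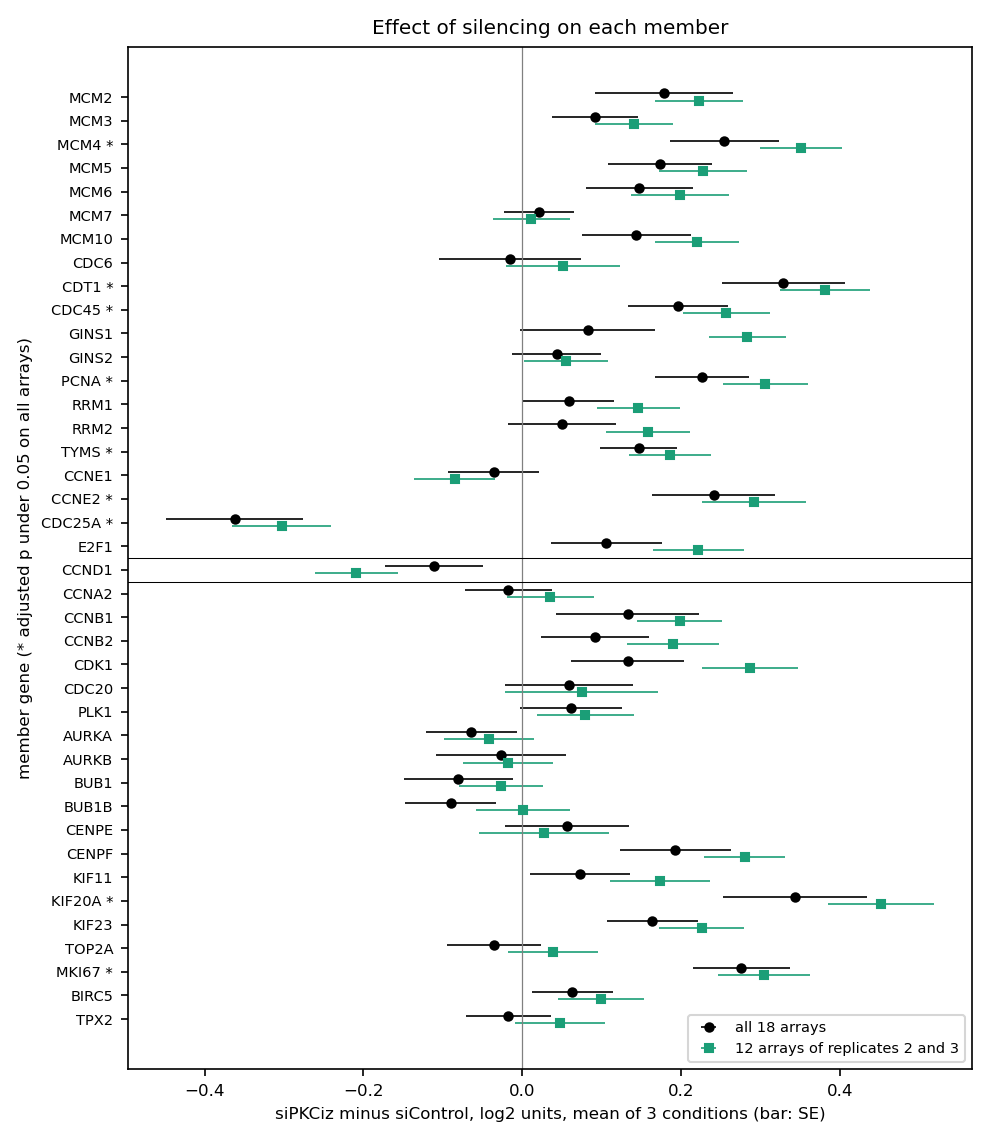
Change of each of the 40 members on silencing (siPKCiz minus siControl, mean of the 3 conditions, log2 units on the x axis) with its SE, from all 18 arrays and from the 12 arrays of replicates 2 and 3. KIF20A and CDT1 are farthest to the right (0.34 and 0.33 with all arrays, 0.45 and 0.38 without replicate 1) and CDC25A farthest to the left (-0.36 and -0.30).

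Condition by condition, silencing called 0 members without TGFβ by limma, where 3.58% of all genes were called. An unadjusted p under 0.05 was found there for 6 members (15%) and for 17.4% of all genes. CDT1 (0.42 ± 0.13, adjusted p = 0.0975) and MKI67 (0.32 ± 0.11, adjusted p = 0.103) had the lowest p-values. At 8 h CDT1 (1.39-fold; 0.47 ± 0.13; adjusted p = 0.047) and MKI67 (1.36-fold; 0.44 ± 0.11; adjusted p = 0.0206) rose, 2 of 40 where 5.41% of all genes were called (3.52% higher). CDT1 kept this call in 2 and MKI67 in 3 of 9 settings that left out an array or a replicate number. At 24 h 0 members were called by limma, where 3.19% of all genes were called. An unadjusted p under 0.05 was found there for 1 member (2.5%) and for 15.6% of all genes. CDC25A and then KIF20A (0.32 ± 0.16, adjusted p = 0.34) had the lowest p-values. For 9 S phase members at 8 h the 3 silenced arrays lay wholly above the 3 control arrays, as for 12.3% of all genes, and for 1 wholly below, as for 11.8%. By replicate number, 18, 16 and 18 of 20 S phase members read higher in siPKCiz without TGFβ in replicates 1, 2 and 3, 10, 18 and 18 at 8 h, and 5, 14 and 14 at 24 h. PRKCZ in replicate 1 differed least between the arms; its part in these counts was not tested.

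Without replicate 1 the mean of the conditions called 25 members, 23 higher and 2 lower, where 31.4% of all genes were called; higher members were 57.5% of the 40, against 18.9% of all genes. The largest rises were in KIF20A (0.45), CDT1 (0.38), MCM4 (0.35) and PCNA (0.31), and CCND1 fell (-0.21; adjusted p = 0.00634) beside CDC25A. At 8 h 17 members rose where 19% of all genes were called (12.2% higher), with CDT1 (0.63; adjusted p = 0.000413), MCM4 (0.55), CCNE2 (0.51) and GINS1 (0.49) at the top. Without TGFβ, 3 rose, KIF20A (0.41), MKI67 (0.34) and MCM4 (0.32), where 8.23% of all genes were called, and at 24 h KIF20A rose (0.51) and CDC25A fell (-0.48), where 11.3% were. Without replicate 2 or replicate 3 the count was 0 in each, as in all 12 comparisons, where 0% to 4.56% of all genes were called. Single arrays also moved the 8 h count: it was 8 without siControl replicate 1, 1 without siPKCiz replicate 3, and 0 without siControl replicate 2 or 3 or siPKCiz replicate 1 or 2. At 24 h it was 1 without siControl replicate 3 or siPKCiz replicate 1.

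**Figure D5:**
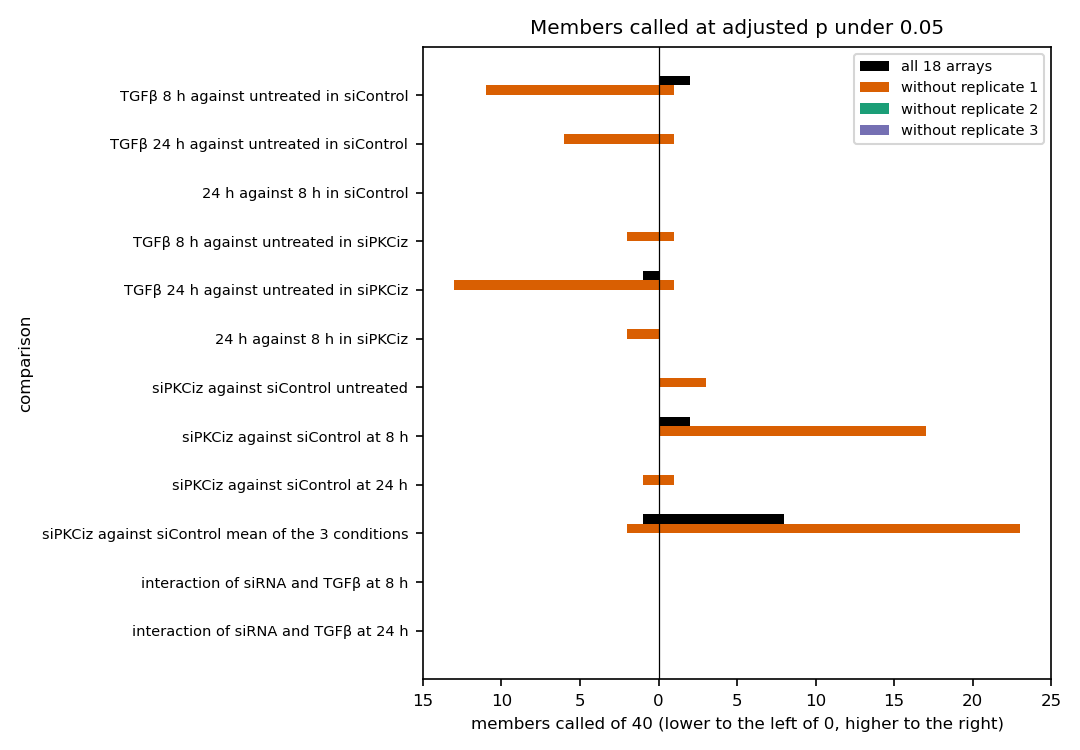
Number of the 40 members called in each comparison (limma, adjusted p under 0.05), higher to the right and lower to the left, with all 18 arrays and without each replicate number. The mean effect of silencing has 8 higher and 1 lower with all arrays and 23 higher and 2 lower without replicate 1, and every comparison has 0 without replicate 2 and 0 without replicate 3.

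Among the 159 further genes the mean effect of silencing was called for 36, 28 higher and 8 lower (22.6%, against 19.9% of all genes, with 11.8% of all genes higher). All 7 called genes of 9 in nucleotide synthesis rose, with the deoxycytidine kinase gene DCK at 0.77 ± 0.055 (adjusted p = 3.71e-08), DTYMK at 0.25 and DUT at 0.22. The claspin gene CLSPN (0.40), EXO1 (0.34) and ATM (0.16) rose among 11 checkpoint and repair genes, and DBF4 (0.31), WDHD1 (0.28) and GINS3 (0.25) among 15 origin genes. Of 22 polymerase and fork genes 4 rose, with CHAF1B (0.30), POLE (0.20) and RFC2 (0.19) foremost. In the E2F family E2F3 (0.38) and E2F8 (0.30) rose and E2F5 fell by 0.58. The factor gene FOXM1 of late genes (0.17), KNTC1 of the kinetochore (0.21), and ECT2 (0.37) and ANLN (0.26) of cytokinesis rose, and CEP55 fell by 0.28. CDC25C (-0.42), CDK6 (-0.27) and CCNG1 (-0.21) fell among 14 genes of cyclins, kinases and CDC25 phosphatases, and CDKN1B fell by 0.16. The ubiquitin ligase genes BTRC (-0.59) and SKP2 (-0.40) fell, whereas FBXW7, also a ubiquitin ligase gene, rose by 0.26. ESPL1, which was listed with them but is not a ligase gene, rose by 0.27. Without replicate 1 CCNG1 was not called (-0.12; adjusted p = 0.201), and the changes were 0.54 in EXO1, 0.44 in FBXW7, 0.32 in KNTC1, 0.40 in ANLN and -0.25 in CDKN1B. In single conditions 3 further genes were higher and 3 lower without TGFβ (3.77%, against 3.58% of all genes), 8 and 3 at 8 h (6.92% against 5.41%), and 1 and 5 at 24 h (3.77% against 3.19%). DCK was higher and E2F5, SKP2 and BTRC lower in all 3.

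Whether silencing changed the response to TGFβ was tested as an interaction. At 8 h and at 24 h 0 of 40 members were called by limma, with 0 at an unadjusted p under 0.05, and 0% of all genes were called, with 625 and 705 genes at an unadjusted p under 0.05. At 8 h the lowest p-values were those of CENPF (0.24 ± 0.17; adjusted p = 0.99967) and CCNA2 (0.17 ± 0.13; adjusted p = 0.99967). At 24 h they were those of KIF11, a spindle kinesin gene (-0.27; 95% interval -0.60 to 0.050; adjusted p = 0.999709), and MKI67 (-0.26; -0.58 to 0.053; adjusted p = 0.999709). These intervals reach differences as large as the changes after TGFβ or on silencing themselves. A difference of that size was thus not excluded for KIF11 and MKI67 with 3 arrays per group. Without replicate 1 the interactions still called 0 of 40, where 0.316% and 0.435% of all genes were called. A fall with TGFβ called in 1 arm and not in the other is therefore not shown to differ between the arms.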

How the data were processed

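RNA from 18 A549 samples was measured on Affymetrix whole-transcript arrays. The deposited values are normalized intensity on a linear scale, 21.2 to 51230, with array medians of 156.1 to 160.7. The submitters' processing notes name RMA and Partek, without versions or settings. Of 28869 probe sets, 19310 carry 1 symbol, 1752 several and 7807 none in the platform table. The probe set with the highest mean was kept per symbol, which left out 933 and gave 18377 genes. Array intensity carries no read depth, and 3 arrays per group limit the precision.

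From there, log2 intensity was taken once and 6 group means were fitted in limma 3.58.1 (R 4.3.3) over all 18 arrays, with moderated tests, 12 residual degrees of freedom and Benjamini-Hochberg adjustment over all genes. A gene was called at an adjusted p under 0.05. The 12 comparisons share arrays. The method was tested on simulated data with independent noise for each gene and array. These data held no replicate that stood apart, so the test does not bear on the counts given here. Alternatives were other scalings (quantile, median centring), a filter on dim probe sets, array weights, fold 1.5, trend with robust fitting, only the arrays compared, all probe sets, a replicate block, and leaving out each array or replicate number.

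Same-numbered arrays did not deviate together: the correlation of deviations from group means ran from -0.51 to 0.26 over 15 pairs per number, so the numbers were not used as pairs. Its median was -0.28, 0.0033 and -0.058 for replicates 1, 2 and 3. These values do not show whether the samples were paired in the experiment.

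The 40 genes and the other lists were chosen with earlier results of these data known. Per-array values are given for a set of genes listed by name and for called genes; where more than 8 were called, the 4 largest rises and falls were described. Where none was called, the 2 lowest p-values are given, and of each further list, in most cases, up to 3 called genes with the largest change. Promoter sequences came from RefSeq's GRCh38.p14 table. Of 166 further list genes, 159 were measured and the others were not analysed here.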

Additional observations from a re-analysis of the deposited data

How the results depend on the processing

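The counts of called members are small. With 3 arrays per group and all 18 arrays, no member's change between 2 groups of under about 0.3 log2 units was called. Larger ones were also left uncalled, such as those on silencing of CDC25A at 24 h (-0.55) and of CDT1 without TGFβ (0.42). Without replicate 2 or replicate 3, 0 members were called by limma in all 12 comparisons, with 0 to 7 at an unadjusted p under 0.05. Leaving out arrays or replicate numbers gave counts of 0 to 12 for TGFβ at 8 h in siControl (2 with all arrays), 0 to 7 at 24 h (0), 0 to 3 at 8 h in siPKCiz (0), 0 to 14 at 24 h (1), 0 to 2 between the times in siPKCiz (0), 0 to 3 for silencing without TGFβ (0), 0 to 17 at 8 h (2), 0 to 2 at 24 h (0) and 0 to 25 over the mean (9). Array weights, which gave replicate 1 a median of 0.514 against 1.41 and 1.37, called 13, 5, 3, 11, 7, 13, 1 and 19 members in the same order without the comparison between the times. A fold of 1.5 called 0 at 8 h in siControl, 0 at 24 h in siPKCiz, and 0 for silencing at 8 h and over the mean. With a replicate block the counts were 1 at 8 h in siControl, 0 at 24 h in siPKCiz, 1 for silencing at 8 h and 7 over the mean. The labels do not say whether the numbers pair the samples, and 0 of 18 arrays were closest to their own number. Fitting only the arrays compared gave 1 at 8 h in siControl, 1 and 3 at 8 h and 24 h in siPKCiz, and 0 for silencing at 8 h. Median centring gave 1 at 8 h in siControl and 1 and 2 in siPKCiz, the filter on dim probe sets 1 at 24 h in siControl, 1 and 2 in siPKCiz and 1 for silencing at 24 h. Quantile scaling gave 1 and 0 in siPKCiz and 1 for silencing at 24 h, trend with robust fitting 1 and 2 in siPKCiz, and all probe sets 0 at 24 h in siPKCiz. The share of calls that were higher, over all genes, went from 59.4% to 48.9% under quantile scaling for silencing without TGFβ and from 48% to 33% under median centring between the times in siPKCiz. S phase minus mitotic change ranged from -0.180 to 0.109 between the times in siPKCiz and from -0.105 to 0.141 at 24 h in siControl when arrays were left out. Signs of small medians did change: the S phase median at 24 h in siControl went from -0.044 to 0.014 without replicate 2 and 0.024 without replicate 3, and that of the interaction at 8 h from 0.024 to -0.0089 under quantile scaling. The 14 calls of single members kept their side of the threshold in 98 settings and lost it in 28 under the processing alternatives, and in 154 against 80 when arrays or replicate numbers were left out; the cause was not tested.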
